A study of Rattus norvegicus with 9 samples.

Results

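The 10 genes described here regulate the building of mitochondria. They are the coactivators Ppargc1a and Ppargc1b, the estrogen-related receptors Esrra and Esrrg, the peroxisome proliferator-activated receptors Ppara and Ppard, nuclear respiratory factor 1 (Nrf1), the mitochondrial transcription factors Tfam and Tfb2m, and the catalytic subunit of the mitochondrial DNA polymerase, Polg. They were chosen by name for their function, with earlier results of these data known. All 10 were found among the 14506 genes with 1 gene symbol in the annotation of the array, each with 1 probe set. Their mRNA levels in the tibialis anterior muscle (TIB) come from 9 Affymetrix Rat Gene 1.0 ST arrays, each of a different male Sprague Dawley rat, with 3 rats in each of 3 groups. Fed rats received a standard diet and had a full stomach when sampled. P2 rats were fasted until phase 2 of fasting, in which body mass falls slowly and lipids are the main fuel. P3 rats were fasted until phase 3, in which body mass loss accelerates and protein breakdown increases, and they were sampled on the day after its onset. All rats were bought at an age of 10 weeks, kept their drinking water and were assigned to the groups at random. No allele or agent is named for any group, and the days without food differ between P2 and P3 together with the phase.

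The coactivators of the PGC-1 family do not bind DNA themselves but dock on transcription factors, above all on the estrogen-related receptors (ERRs), the PPARs and NRF-1. These factors then raise the transcription of nuclear genes for the respiratory chain, the TCA cycle and fatty acid oxidation. NRF-1 and the ETS factor GABP also drive the genes whose products enter mitochondria to copy and transcribe mitochondrial DNA, which is the link from the nuclear program to the mitochondrial genome. In skeletal muscle, endurance exercise is known to induce the program and disuse to repress it.

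The deposited values are log2 intensities made by the authors with robust multi-array averaging (RMA), and 1 unit is a doubling. Group means of all 29215 probe sets were fitted together with limma, and a gene was called higher or lower when its Benjamini-Hochberg adjusted p over all probe sets was under 0.05. Fold changes are given on the log2 scale with their standard error after the ± sign. Median intensities of the arrays lay between 5.80 and 5.90. The tissue label was checked with markers of skeletal muscle fibres. The 7 measured markers, among them Acta1, Ckm and Myh4, had fed means of 13.17 to 13.97, near the upper end of the scale, and 6 of them passed no test in P2 or P3 versus the fed state, the other being Pvalb, a calcium buffer of fast fibres. The arrays measure whole muscle, so that fewer cells of a type and less RNA per cell cannot be told apart.

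In P3 the regulators split into a part that fell and a part that rose. Both PGC-1 coactivators, both ERRs and Ppara were lower than in the fed state, by 1.56-fold for Ppara and up to 5.85-fold for Ppargc1b. Nrf1, Tfam, Tfb2m and Ppard were higher, by 1.35-fold for Ppard up to 1.71-fold for Nrf1, and Polg passed no test. P2 showed fewer changes, with Ppargc1b and Esrrg lower and Nrf1 higher. In limma's test, 3 of 10 members were thus called in P2 versus Fed, where 9.28% of all probe sets were. In P3 versus Fed 9 of 10 were called, against 29.2% of all probe sets, and in P3 versus P2 5 of 10, against 16.0%. By direction, 1 member was higher and 2 were lower in P2 versus Fed, beside 7.07% of all genes that were higher and 5.57% that were lower. Comparing P3 with Fed, 4 were higher and 5 lower, against 18.2% and 17.1% of all genes. In P3 versus P2 2 were higher and 3 lower, against 11.4% and 10.4%. The moderated F test across the groups was passed by 8 of 10 members and by 33.1% of all genes. As the members were chosen with earlier results of these data known, the counts describe them and do not test the set. Because the directions were opposed, the median change of the members stayed small, at -0.20 for either fasted group against the fed state and 0.019 for the step from P2 to P3, beside 0.0051, -0.015 and -0.016 over all genes. Of these counts, that of P2 depends most on single rats. It was 1 without Fed 2 and 5 without P3 2. The count of P3 versus P2 was 8 without P2 1, where Esrrg, Tfam and Tfb2m were added.

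**Figure D1:**
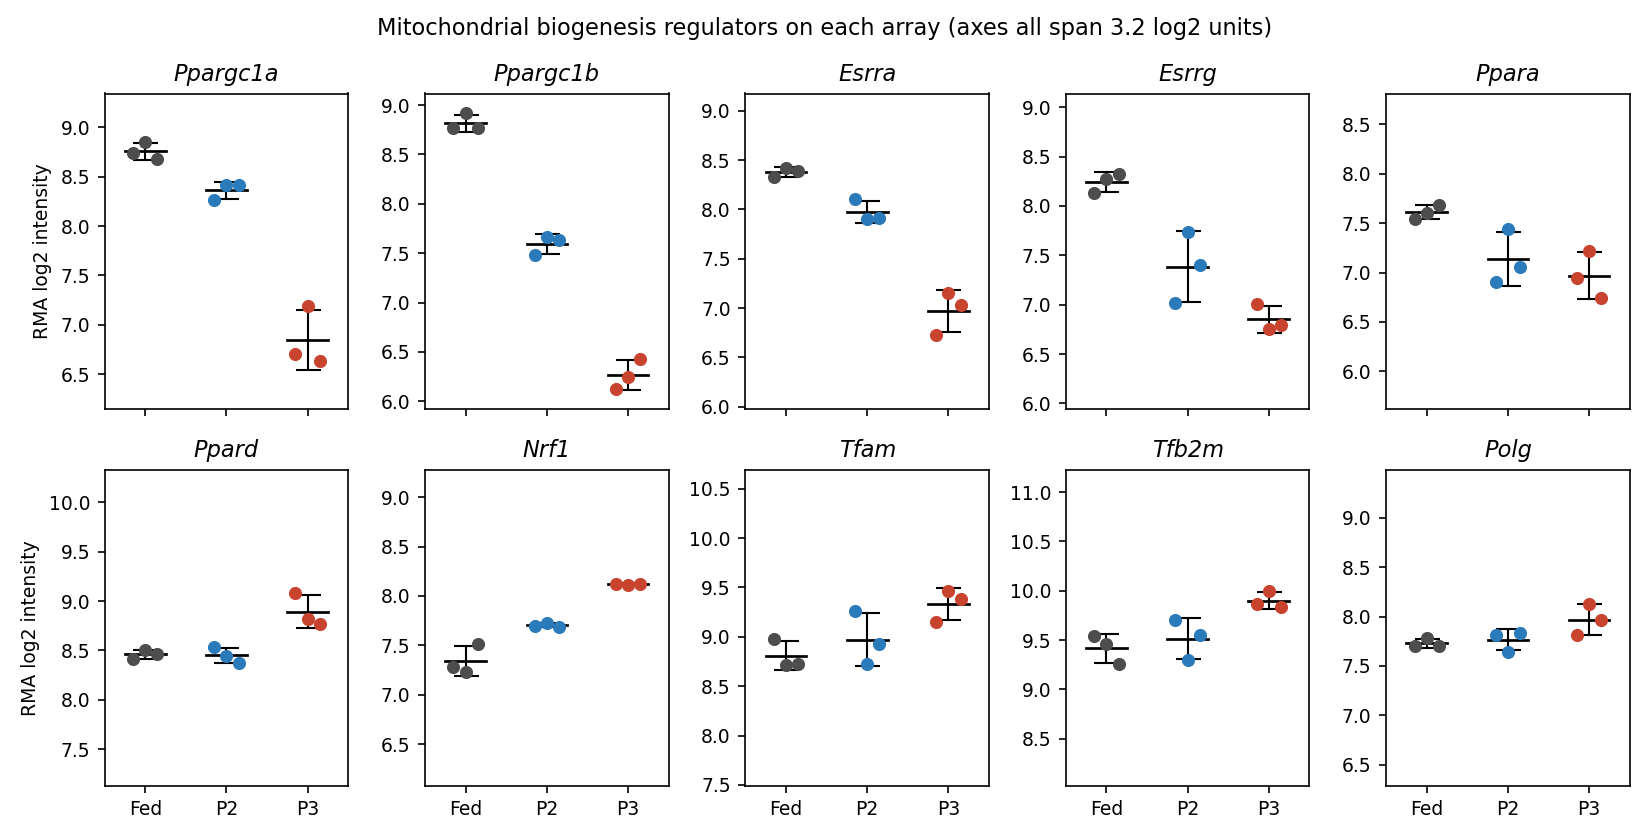
RMA log2 intensity (y axis) of each regulator on every array, in fed, P2 and P3 rats (x axis). Points are arrays, horizontal lines group means and bars the SD of 3 rats, and every y axis spans the same range. Ppargc1a, Ppargc1b, Esrra, Esrrg and Ppara were called lower in P3 versus Fed. Nrf1, Tfam, Tfb2m and Ppard were called higher, and Polg was not called.

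**Figure D2:**
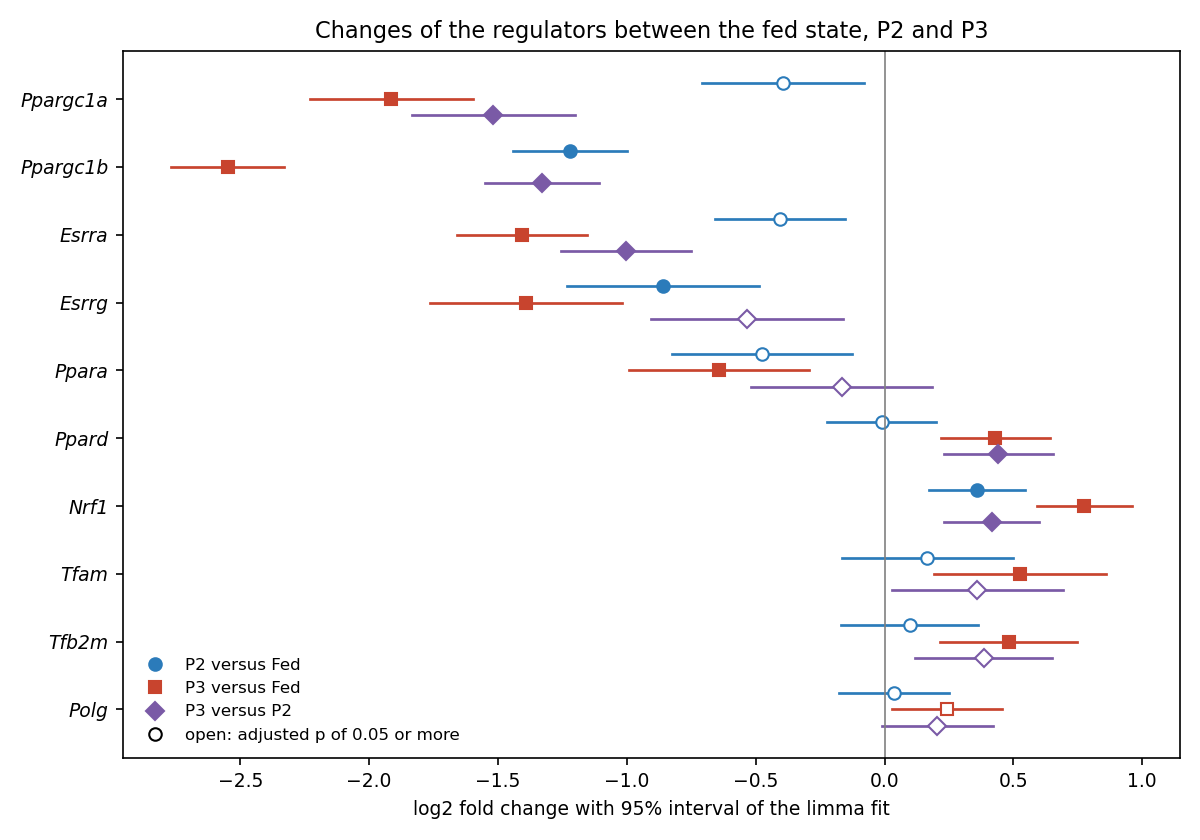
Log2 fold change (x axis) of each regulator in the 3 comparisons, with unadjusted 95% intervals of the limma fit. Filled symbols passed an adjusted p of 0.05. Ppargc1b had the largest drop of the 10 genes, at -2.55 in P3 versus Fed, and Nrf1 the largest rise, at 0.77.

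Since members of the same program moved apart, promoters from either side are shown, those of Ppargc1a and Esrra, which fell, and of Tfam and Tfb2m, which rose. RefSeq promoter windows of 250 bases before and 50 after an annotated start site (build GRCr8) were available for 9 of the 10 members, with 4 windows for Esrrg and none for Ppard. Capitals mark matches, on either strand, to the letters searched: TGACGTCA for CREB, GCGCNTGCG for NRF-1, CCGGAAGT for GABP, GTAAACA for FOXO factors, CACGTG for E-box factors, AAGATGGC for YY1, AGGTCA for nuclear receptors in general and TCAAGGTCA, which contains the former, for ERRs. The windows are Ppargc1a at chr14:63634058-63634357 (plus strand), Esrra at chr1:213543256-213543555 (minus strand), Tfam at chr20:17355123-17355422 (plus strand) and Tfb2m at chr13:93828545-93828844 (minus strand), each written 5′ to 3′ in the direction of the gene.
Ppargc1a: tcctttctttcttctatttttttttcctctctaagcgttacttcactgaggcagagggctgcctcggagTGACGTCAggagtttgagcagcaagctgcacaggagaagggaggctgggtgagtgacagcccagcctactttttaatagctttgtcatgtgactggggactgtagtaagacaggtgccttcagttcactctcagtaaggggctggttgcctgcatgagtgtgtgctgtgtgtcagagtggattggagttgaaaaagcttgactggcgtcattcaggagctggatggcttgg
Esrra: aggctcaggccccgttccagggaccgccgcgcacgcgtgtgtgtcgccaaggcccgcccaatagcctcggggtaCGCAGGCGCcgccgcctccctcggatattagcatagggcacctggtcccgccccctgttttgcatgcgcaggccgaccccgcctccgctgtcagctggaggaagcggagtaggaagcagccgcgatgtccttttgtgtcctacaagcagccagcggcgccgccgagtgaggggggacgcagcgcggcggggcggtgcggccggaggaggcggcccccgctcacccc
Tfam: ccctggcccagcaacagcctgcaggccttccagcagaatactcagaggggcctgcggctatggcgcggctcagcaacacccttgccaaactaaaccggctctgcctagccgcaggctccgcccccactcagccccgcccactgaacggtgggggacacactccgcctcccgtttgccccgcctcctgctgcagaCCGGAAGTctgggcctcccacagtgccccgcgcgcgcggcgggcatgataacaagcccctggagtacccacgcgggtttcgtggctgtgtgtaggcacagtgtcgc
Tfb2m: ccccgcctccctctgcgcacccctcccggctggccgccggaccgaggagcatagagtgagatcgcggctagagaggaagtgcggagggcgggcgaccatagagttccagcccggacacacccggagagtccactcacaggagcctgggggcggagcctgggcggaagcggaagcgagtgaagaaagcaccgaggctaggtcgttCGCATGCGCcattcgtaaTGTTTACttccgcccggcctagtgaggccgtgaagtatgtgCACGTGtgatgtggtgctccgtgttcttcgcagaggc

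The Ppargc1a window holds the palindromic CREB motif, the cyclic AMP response element, 181 bases before the start site. Among 33469 rat promoter windows of the same length, 1.83% hold it. This start site lies inside the bounds of the gene, and other Ppargc1a start sites were not analysed here. The Esrra window holds an NRF-1 match 176 bases before the start, and 5.75% of all windows hold this motif. The Tfam window holds a GABP match 56 bases before the start, as do 3.81% of all windows. The Tfb2m window has an NRF-1 match 46 bases before the start, a FOXO match 28 bases before it (3.78% of all windows) and an E-box 13 bases after it (6.42%).

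Among the windows that are not printed, Ppara has 2 overlapping NRF-1 matches starting 100 and 99 bases before the start, and Polg a GABP match 121 bases before it. Ppargc1b has a YY1 match 30 bases after the start (3.17% of all windows). The third Esrrg window has a nuclear receptor match 135 bases before its start, a motif that 16.2% of all windows hold. Nrf1 has none of the motifs, and the ERR motif, which 0.433% of all windows hold, is in no member window. NRF-1 letters thus occur in windows of genes that fell (Esrra, Ppara) and of one that rose (Tfb2m). A match is a description of letters and was not tested for binding.

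**Figure D3:**
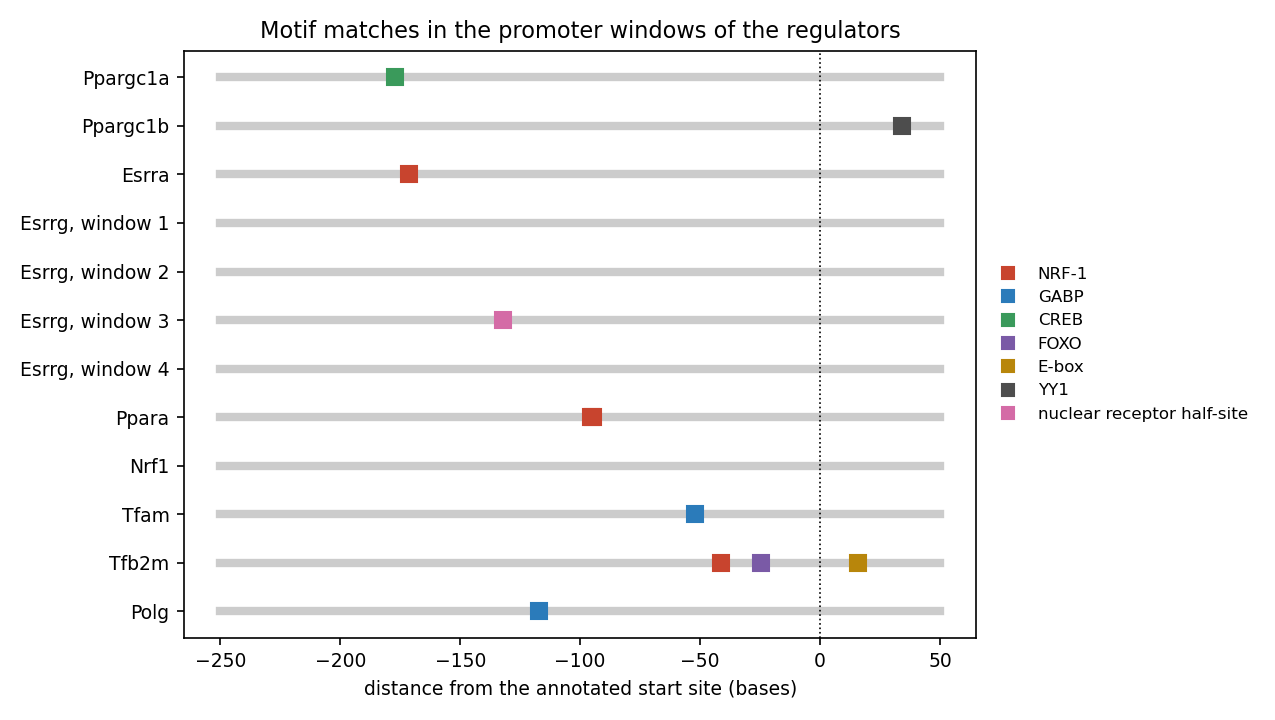
Motif matches (squares, coloured by factor) in the promoter windows of the regulators, by their distance from the annotated start site in bases (x axis, with the start site at 0). NRF-1 matches lie in the Esrra, Ppara and Tfb2m windows and GABP matches in the Tfam and Polg windows.

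Ppargc1a (chr14:63073505-63729215) encodes PGC-1α, the best-known coactivator of mitochondrial biogenesis in muscle. Its intensities were 8.74, 8.85 and 8.68 in the fed rats, 8.26, 8.41 and 8.41 in P2 and 6.70, 7.19 and 6.63 in P3. The groups do not overlap, and P3 lies far from both others. The log2 fold change was -1.91 ± 0.14 in P3 versus Fed (limma, adjusted p = 1.15e-05), which leaves 26.5% of the fed level, and -1.52 ± 0.14 in P3 versus P2 (adjusted p = 0.000131). In P2 it was -0.39 ± 0.14 versus Fed and missed the threshold (adjusted p = 0.130, 95% interval -0.71 to -0.08). It passed without P3 2, the highest P3 rat (adjusted p = 0.0215), and in a fit with only the groups compared (adjusted p = 0.0393).

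Ppargc1b (chr18:57029264-57131466) encodes PGC-1β, a coactivator of the same factors that is known for basal mitochondrial content. It measured 8.76, 8.92 and 8.76 in the fed rats, 7.48, 7.67 and 7.64 in P2 and 6.12, 6.25 and 6.43 in P3. Ppargc1b fell at each step, with no overlap between any groups. The change was -1.22 ± 0.10 in P2 versus Fed (limma, adjusted p = 0.000224), -1.33 ± 0.10 in P3 versus P2 (adjusted p = 4.01e-05) and -2.55 ± 0.10 in P3 versus Fed (adjusted p = 3.91e-07). In P2 42.9% of the fed level was left and in P3 17.1%. All 3 calls held in every alternative that was run.

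Both coactivators therefore fell by similar steps from P2 to P3, whereas only Ppargc1b passed the test between the fed state and P2. To test whether they changed unequally, the log2 difference of Ppargc1a minus Ppargc1b was taken within each array and set against its fed mean. It was 0.84, 0.81 and 0.84 in the P2 rats and 0.64, 1.00 and 0.26 in the P3 rats, while the fed rats lay between -0.028 and 0.033. The ratio of Ppargc1a to Ppargc1b was 1.77-fold the fed ratio in P2 and 1.55-fold in P3, higher in 6 of 6 fasted rats. The 3 groups differed in an exact permutation test of the F statistic over the 280 distinct divisions of the arrays (two-sided p = 0.0214, 0.0321 after adjustment over 3 families, smallest possible p 0.00357). With 8 arrays the adjusted p rose to between 0.0536 and 0.0857, whichever array other than P3 2 was left out.

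**Figure D4:**
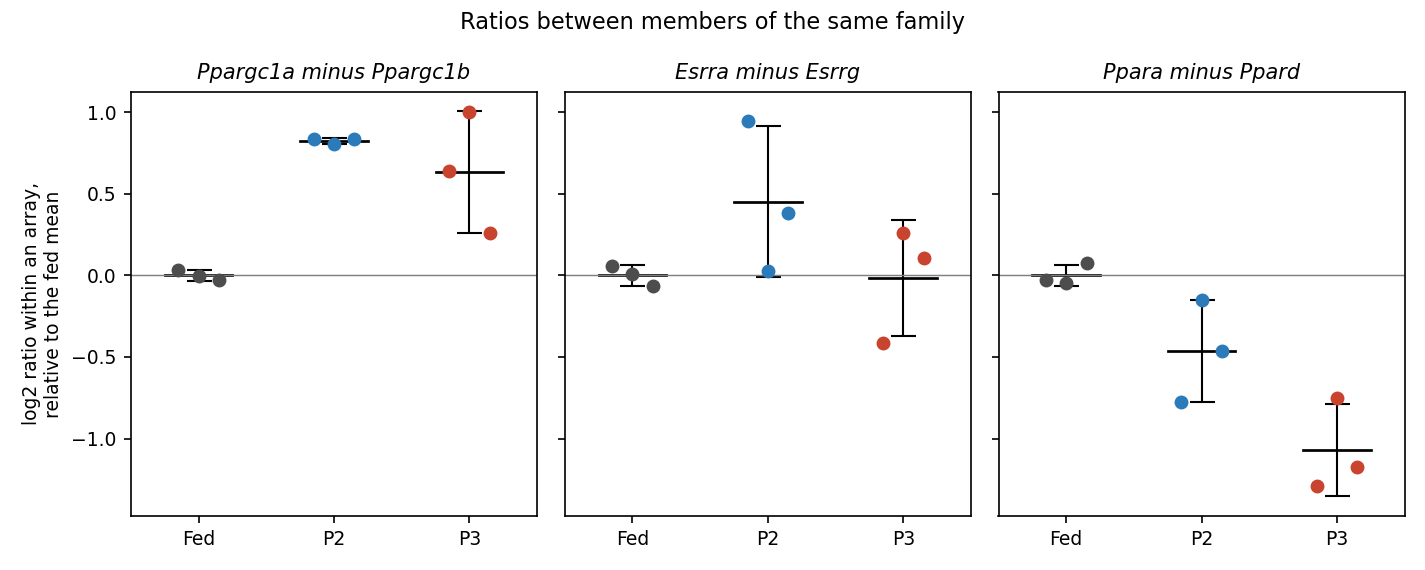
Log2 ratio between 2 members of a family within each array (points), relative to the mean of the fed rats (y axis), with group means and the SD of 3 rats. The Ppargc1a to Ppargc1b ratio lies above the fed rats in every fasted rat, and the Ppara to Ppard ratio lies below them.

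The ERRs are orphan nuclear receptors through which PGC-1 coactivators reach respiratory chain genes. Esrra (chr1:213533309-213543432) encodes ERRα, whose own gene is a known target of the program. Its intensities were 8.33, 8.42 and 8.39 in the fed rats, 8.10, 7.90 and 7.92 in P2 and 6.73, 7.15 and 7.03 in P3. As with Ppargc1a, most of the decrease lay between P2 and P3. It amounted to -1.002 ± 0.11 in P3 versus P2 (limma, adjusted p = 0.000363) and -1.41 ± 0.11 in P3 versus Fed (adjusted p = 1.81e-05), a 2.65-fold lower level. The P2 rats all lay below the fed rats, at -0.41 ± 0.11, just short of the threshold (adjusted p = 0.0559, 95% interval -0.66 to -0.15). That difference passed in 9 alternatives, among them without P2 1 (adjusted p = 0.0424), without P3 1 (0.0212) and without P3 2 (0.0450).

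Esrrg (chr13:101699043-102316877) encodes ERRγ, the ERR that is typical of oxidative fibres. It measured 8.14, 8.27 and 8.32 in the fed rats, 7.02, 7.74 and 7.40 in P2 and 7.01, 6.75 and 6.79 in P3. The P2 rats are widely spread, and P2 1 lies close to the highest P3 rat. Esrrg fell by 0.86 on the log2 scale in P2 versus Fed (SE 0.16, limma, adjusted p = 0.0129) and by 1.39 in P3 versus Fed (SE 0.16, adjusted p = 0.000205). The step from P2 to P3, -0.53 ± 0.16, was not called (adjusted p = 0.0605), but passed without P2 1 (adjusted p = 0.00652). The P2 call was lost without Fed 2 (adjusted p = 0.0525) or Fed 3 (0.0529). The within-array ratio of Esrra to Esrrg did not differ between the groups by the same exact permutation test (p = 0.246). It was 1.37-fold the fed ratio in P2, where single rats lay between 0.029 and 0.95 on the log2 scale, and 0.989-fold in P3, where they lay between -0.42 and 0.26.

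The PPARs are fatty acid sensors that bind DNA together with a retinoid X receptor and switch on genes of fatty acid oxidation. Ppara (chr7:118712261-118780723) encodes PPARα, the main driver of the fasting response in liver, which is also present in muscle. Its intensities were 7.54, 7.61 and 7.69 in the fed rats, 6.91, 7.44 and 7.06 in P2 and 6.95, 7.22 and 6.74 in P3. The fasted groups overlap with each other and lie below the fed rats. Ppara was lower in P3 versus Fed, at -0.64 ± 0.15 (limma, adjusted p = 0.0121). In P2 versus Fed the value was -0.48 ± 0.15 (adjusted p = 0.1003), and it passed without P2 2, the highest P2 rat (adjusted p = 0.0333). P3 versus P2 gave -0.17 ± 0.15 (adjusted p = 0.594, 95% interval -0.52 to 0.18). The call in P3 versus Fed held whichever array was left out but was lost by the methods' ANOVA with Benjamini-Hochberg adjustment. The moderated F test across the groups (adjusted p = 0.0291) was missed without Fed 1, Fed 2, Fed 3, P2 3, P3 1 or P3 3 (adjusted p 0.053 to 0.110).

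Ppard (chr20:6300527-6365707) encodes PPARδ, the PPAR that is most abundant in skeletal muscle. It measured 8.42, 8.51 and 8.46 in the fed rats, 8.53, 8.44 and 8.38 in P2 and 9.08, 8.82 and 8.77 in P3. Fed and P2 rats overlap, with a difference of -0.011 ± 0.093 (limma, adjusted p = 0.965, 95% interval -0.22 to 0.20). All P3 rats lie above them, and Ppard was higher in P3 versus Fed by 0.43 ± 0.09 (adjusted p = 0.00687) and versus P2 by 0.44 ± 0.09 (adjusted p = 0.0109).

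The 2 PPARs thus moved in opposite directions in P3. The log2 difference of Ppara minus Ppard, relative to its fed mean, was -0.77, -0.15 and -0.47 in the P2 rats and -1.29, -0.75 and -1.18 in the P3 rats, with fed rats between -0.048 and 0.074. It was lower in 6 of 6 fasted rats, and the ratio of Ppara to Ppard fell to 0.725-fold the fed ratio in P2 and 0.475-fold in P3. The groups differed (two-sided exact permutation test, p = 0.00714, 0.0214 after adjustment over 3 families). The adjusted p rose to between 0.0536 and 0.0643 without Fed 1, Fed 2, Fed 3, P3 1 or P3 3.

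Nrf1 (chr4:59632366-59738166) encodes NRF-1, which binds the promoters of respiratory chain genes and of Tfam. It measured 7.28, 7.23 and 7.52 in the fed rats, 7.69, 7.73 and 7.69 in P2 and 8.12, 8.11 and 8.12 in P3. The values rose by similar steps from Fed to P2 to P3 with no overlap, and fasted rats of a group lay close together (SD 0.022 in P2 and 0.008 in P3). The rise was 0.36 ± 0.08 in P2 versus Fed (limma, adjusted p = 0.0266), 0.42 ± 0.08 in P3 versus P2 (adjusted p = 0.00762) and 0.77 ± 0.08 in P3 versus Fed (adjusted p = 0.000101). The P2 call is the weakest of them. It was lost without Fed 1 (adjusted p = 0.0868), Fed 2 (0.0940), P2 2 (0.0768) or P2 3 (0.0749) and with only the groups compared (0.0704). Nrf1 was thus called in the opposite direction to Ppargc1a and Ppargc1b in P3.

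Tfam (chr20:17355373-17367422) encodes the protein that packages mitochondrial DNA and starts its transcription. Its intensities were 8.98, 8.72 and 8.73 in the fed rats, 9.26, 8.72 and 8.93 in P2 and 9.15, 9.47 and 9.38 in P3. P3 rats lie above the fed rats, while P2 1 lies among the P3 rats. The difference in P3 versus Fed, 0.53 ± 0.15, was called (limma, adjusted p = 0.0246). P2 versus Fed gave 0.16 ± 0.15 (adjusted p = 0.587, 95% interval -0.17 to 0.50) and P3 versus P2 gave 0.36 ± 0.15 (adjusted p = 0.156). The F test across the groups was missed (adjusted p = 0.0606). The P3 call was lost without Fed 2 (adjusted p = 0.0864), Fed 3 (0.0823), P3 2 (0.0856) or P3 3 (0.0750) and after quantile normalization once more (0.0583), and P3 versus P2 passed without P2 1 (0.0329).

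Tfb2m (chr13:93810859-93828678) encodes the factor that melts mitochondrial promoters together with the mitochondrial RNA polymerase. It measured 9.54, 9.46 and 9.25 in the fed rats, 9.70, 9.29 and 9.55 in P2 and 9.87, 9.996 and 9.83 in P3. Fed and P2 rats overlap, and the P3 rats lie above both. Tfb2m was higher in P3 versus Fed by 0.48 ± 0.12 (limma, adjusted p = 0.0131), and the call was lost without Fed 3, the lowest fed rat (adjusted p = 0.0507). P2 versus Fed gave 0.10 ± 0.12 (adjusted p = 0.703), and P3 versus P2 gave 0.38 ± 0.12 (adjusted p = 0.0588), which passed without P2 1 (0.0287).

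Polg (chr1:142792119-142808933), which copies mitochondrial DNA, showed the smallest P3 change of the 10 genes. It measured 7.71, 7.78 and 7.70 in the fed rats, 7.81, 7.65 and 7.84 in P2 and 7.81, 8.13 and 7.97 in P3. The P3 rats lie above the fed rats by a small margin and overlap with P2. No comparison was called, with 0.04 ± 0.09 in P2 versus Fed (limma, adjusted p = 0.878), 0.24 ± 0.09 in P3 versus Fed (adjusted p = 0.0906, 95% interval 0.03 to 0.46) and 0.21 ± 0.09 in P3 versus P2 (adjusted p = 0.213). Without P3 1, the lowest P3 rat, P3 versus Fed passed (adjusted p = 0.0374).

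Likeness between patterns was measured as the root mean square (RMS) difference of the 9 log2 values, each gene centred on its own mean. Among the members the closest pair was Tfam and Tfb2m, 0.0995 log2 units apart, and the farthest was Ppargc1b and Nrf1, at 1.36. Over all genes, the 3 closest to Ppargc1a were Rhobtb3, C2cd5 and Asb10, at 0.105 to 0.106, and Asb10 encodes a subunit of muscle ubiquitin ligases. Closest to Ppargc1b were Rilp, Adprhl1 and Dhrs11 (0.111 to 0.148), and to Esrra Ubac1, Lrrfip1 and Btbd6 (0.0948 to 0.104). Esrrg was most like Actg1, which encodes a cytoplasmic actin, Cmpk2, a mitochondrial nucleotide kinase, and the basement membrane collagen gene Col4a1 (0.0975 to 0.121). Rising Nrf1 had Rnf25, Iffo1 and Ebna1bp2 beside it (0.0673 to 0.0710). Tfb2m had Atp6v1c1, a subunit of the lysosomal proton pump, Folh1 and Gabarapl2, an autophagosome protein (0.0717 to 0.0776). Folh1 was dim, with means of 3.71 in Fed and 4.07 in P3. Ppara was most like Tbck, Ermp1 and Nup205 (0.0900 to 0.105) and Ppard most like Nfya, a subunit of the CCAAT-binding factor NF-Y, Zer1 and Lpin3 (0.0636 to 0.0883). Small changes leave smaller differences to any gene, so that the RMS values do not rank the members.

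Lists of related genes put the members in their pathway. The lists were drawn up by function, with earlier results of these data known, and describe the surroundings without a test of the list. Counts of every list and marker set stand beside the shares of all genes called. These were 7.07% higher and 5.57% lower in P2 versus Fed and 18.2% and 17.1% in P3 versus Fed. In P3 versus P2 they were 11.4% and 10.4%. Genes named in them are those with the largest changes among calls and the whole of any small count, the latter named after their values were seen. The first list has partner factors and coregulators, of which 27 of 31 were measured. P3 rats had 16 higher and 5 lower than fed rats, with a median change of 0.46. In P2 versus Fed 7 were higher and 3 lower, with a median of 0.17, and without Fed 1 4 were higher. P3 versus P2 had 9 higher and 5 lower, and 3 lower without P2 3 or P3 3.

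The partners that fell in P3 were Perm1, Rxrg, Thra, Mef2a and Nr0b2, a count near the share of all genes that were lower, 17.1%. Nr0b2 was dim, with means of 5.42 in Fed and 4.34 in P3, below the median intensities of the arrays. Perm1, a muscle factor induced by PGC-1 and ERRs, measured 10.80, 11.01 and 11.07 in the fed rats, 8.85, 9.61 and 9.37 in P2 and 7.72, 8.04 and 8.10 in P3. It fell at each step with no overlap, with changes of -1.68 ± 0.19 in P2 (limma, adjusted p = 0.000982) and -3.001 ± 0.19 in P3 versus Fed (adjusted p = 4.86e-06), 8.004-fold in all. Rxrg, a retinoid X receptor that pairs with PPARs and thyroid hormone receptors, measured 9.78, 9.63 and 9.66 in the fed rats, 9.26, 8.76 and 9.09 in P2 and 7.03, 7.05 and 6.97 in P3. Its decrease lay mainly in P3, at -2.67 ± 0.12 versus Fed (adjusted p = 7.92e-07). Thra, the thyroid hormone receptor α, changed by -0.66 ± 0.10 from Fed to P2 (adjusted p = 0.00459) and by -1.11 ± 0.10 from Fed to P3 (adjusted p = 3.90e-05).

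Forkhead factors led the partners that rose. They mediate much of the response of muscle to low insulin. Foxo1 measured 7.73, 8.02 and 7.92 in the fed rats, 9.32, 9.93 and 9.61 in P2 and 10.72, 10.66 and 10.80 in P3. Foxo1 rose at each step, by 1.73 ± 0.15 in P2 (limma, adjusted p = 0.000284) and 2.83 ± 0.15 in P3 versus Fed (adjusted p = 1.69e-06). Foxo3 rose by 1.34 ± 0.12 (adjusted p = 0.000397) and then reached 2.40 ± 0.12 (adjusted p = 1.51e-06). Gabpa, the DNA-binding subunit of GABP, rose by 1.00 ± 0.09 in P3 (limma, adjusted p = 3.03e-05). Like Nrf1 it was thus higher while Ppargc1a and Ppargc1b were lower. Pprc1, the remaining member of the PGC-1 coactivator family and named for that reason, had 7.06, 7.02 and 6.96 in the fed rats, 7.27, 7.11 and 7.20 in P2 and 7.36, 7.77 and 7.77 in P3. It was higher in P3 versus Fed (adjusted p = 0.00263), opposite to Ppargc1a and Ppargc1b.

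Of the enzymes that act on PGC-1α or on its gene (AMP-activated, calcium-dependent and p38 kinases, deacetylases, CREB coactivators), 30 of 34 were measured. P3 rats had 6 higher and 10 lower than fed rats, against 18.2% and 17.1% of all genes, and the median change was -0.15. The higher count is thus near the share of all genes. Map2k6, a kinase that activates p38, measured 9.63, 9.63 and 9.43 in the fed rats, 7.38, 7.79 and 7.86 in P2 and 6.03, 6.37 and 6.36 in P3. It fell in both phases, with changes of -1.89 ± 0.15 in P2 (limma, adjusted p = 0.000198) and -3.31 ± 0.15 in P3 versus Fed (adjusted p = 7.39e-07). Map2k3, which acts on the same kinase, rose by 1.36 ± 0.11 in P3 (adjusted p = 2.11e-05). The calcium-dependent kinase Camk2a (-1.66 ± 0.15, adjusted p = 3.84e-05) and the protein kinase A subunit Prkaca (-1.18 ± 0.12, adjusted p = 0.000104) were lower in P3. Crtc2, a coactivator of CREB, rose in both phases, by 0.87 ± 0.13 in P2 (adjusted p = 0.00487) and, in P3, by 1.46 ± 0.13 (adjusted p = 4.28e-05), and the CDC-like kinase Clk2 rose by 0.91 ± 0.07 in P3 (adjusted p = 1.15e-05).

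In P2 versus Fed the enzymes called were Crtc2, Hdac4, Kat2a and Clk2, which were higher, and Map2k6 and Camk2a, which were lower. Of all genes 7.07% were higher and 5.57% lower there, and the lower count is near that share. Hdac4, a histone deacetylase that shuttles to the nucleus when calcium signals are low, rose by 0.77 ± 0.09 (limma, adjusted p = 0.00135). The call of Camk2a in P2 stood at an adjusted p of 0.04998 and was lost when any of 8 arrays was left out. The count of lower enzymes was 6 without P2 1 and 1 when any 1 of the other arrays was left out. In P3 versus P2 Prkaa1, Map2k3, Crtc2 and Clk2 were higher and 9 enzymes were lower.

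Targets of the regulators were described as 2 lists. Of nuclear genes regarded as ERR and PGC-1α targets (respiratory chain, TCA cycle, Vegfa, Alas1 and others) 26 of 30 were measured. Lower in P3 versus Fed were 25 of them, with a median of -1.09, and the exception was Slc2a4, the insulin-responsive glucose transporter, at -0.25 (limma, adjusted p = 0.118). In P3 versus P2 23 were lower, with Cox4i1, Alas1 and Ldhb not called. In P2 versus Fed 16 were lower, with a median of -0.40. This count dropped to 7 when Fed 1 was left out, to 6 when it was Fed 2, to 10 when it was Fed 3 and to 7 when it was P2 3.

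Vegfa, which attracts capillaries, showed the largest decrease of that list. It measured 10.46, 10.44 and 10.44 in the fed rats, 9.18, 10.02 and 9.65 in P2 and 7.21, 6.78 and 6.91 in P3, a change of -3.48 ± 0.19 in P3 versus Fed (limma, adjusted p = 2.62e-06). Sdhd, a subunit of succinate dehydrogenase, had changed by -0.59 ± 0.07 in P2 (adjusted p = 0.00179) and by -1.95 ± 0.07 in P3 versus Fed (adjusted p = 3.87e-07). Alas1, which starts heme synthesis, was as low in P2 as in P3, at -1.61 ± 0.15 (adjusted p = 0.000399) and -1.64 ± 0.15 versus Fed (adjusted p = 3.59e-05), with -0.03 ± 0.15 between the phases (adjusted p = 0.942). Fndc5, the precursor of irisin, had changed by -0.84 ± 0.10 in P2 (adjusted p = 0.00153).

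PPAR targets, mostly genes of fatty acid use, were called in both directions. Of 30 genes 28 were measured, and in P2 versus Fed 11 were higher and only Vldlr, a lipoprotein receptor, was lower, at -0.56 ± 0.11 (limma, adjusted p = 0.0126), a call lost without Fed 2 (adjusted p = 0.0550). In P3 versus Fed 12 were lower and 5 higher (Pdk4, Cd36, Ehhadh, Plin2 and Acadl), and 3 were higher when Fed 1, Fed 3, P3 1, P3 2 or P3 3 was left out. The higher count in P3 versus Fed is near the share of all genes, 18.2%. Between P2 and P3 21 were lower, and Plin2 and Cd36 were higher, of which 1 was left without Fed 1, P2 3 or any of the P3 rats. Of the 11 targets higher in P2, 4 were also higher in P3 versus Fed, 7 were not called there and 0 were called lower. Among the 7, Ucp3 (-0.97, limma, adjusted p = 0.0945), Decr1 (-0.38, 0.128), Mlycd (-0.22) and Cpt1b (-0.21) still lay below the fed mean in P3. Angptl4, Cpt1a and Ech1 lay above it. The median change of the list was 0.33 in P2 versus Fed, -0.48 in P3 versus Fed and -0.85 in P3 versus P2.

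Single targets show the range of courses. Pdk4, which blocks pyruvate dehydrogenase, measured 9.74, 10.19 and 10.54 in the fed rats, 13.08, 13.31 and 13.25 in P2 and 12.82, 12.67 and 12.85 in P3. It was higher by 3.06 ± 0.18 in P2 (limma, adjusted p = 7.35e-05) and 2.63 ± 0.18 in P3 versus Fed (adjusted p = 7.54e-06). Angptl4, an inhibitor of lipoprotein lipase, measured 5.15, 5.16 and 4.997 in the fed rats, 7.50, 8.31 and 8.20 in P2 and 5.28, 5.29 and 5.35 in P3. Its rise of 2.90 ± 0.18 in P2 (adjusted p = 8.17e-05) was followed by a P3 level that differed from the fed state by 0.20 (adjusted p = 0.479). Angptl4 was dim in both of these groups, with means of 5.10 in Fed and 5.30 in P3, below the median intensities of the arrays. Fabp3, the fatty acid binding protein of muscle, overlapped with the fed rats in P2 and was 12.1-fold lower in P3 (-3.60 ± 0.21, adjusted p = 3.01e-06). Acsl1, which activates fatty acids, and Slc25a20, which carries acylcarnitine into mitochondria, had changes of -1.73 ± 0.19 (adjusted p = 0.000116) and -1.31 ± 0.10 (adjusted p = 1.95e-05) in P3. The fatty acid transporter Cd36 (1.47 ± 0.15, adjusted p = 6.89e-05) and the peroxisomal enzyme Ehhadh (1.28 ± 0.18, adjusted p = 0.000599) were higher in P3.

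**Figure D5:**
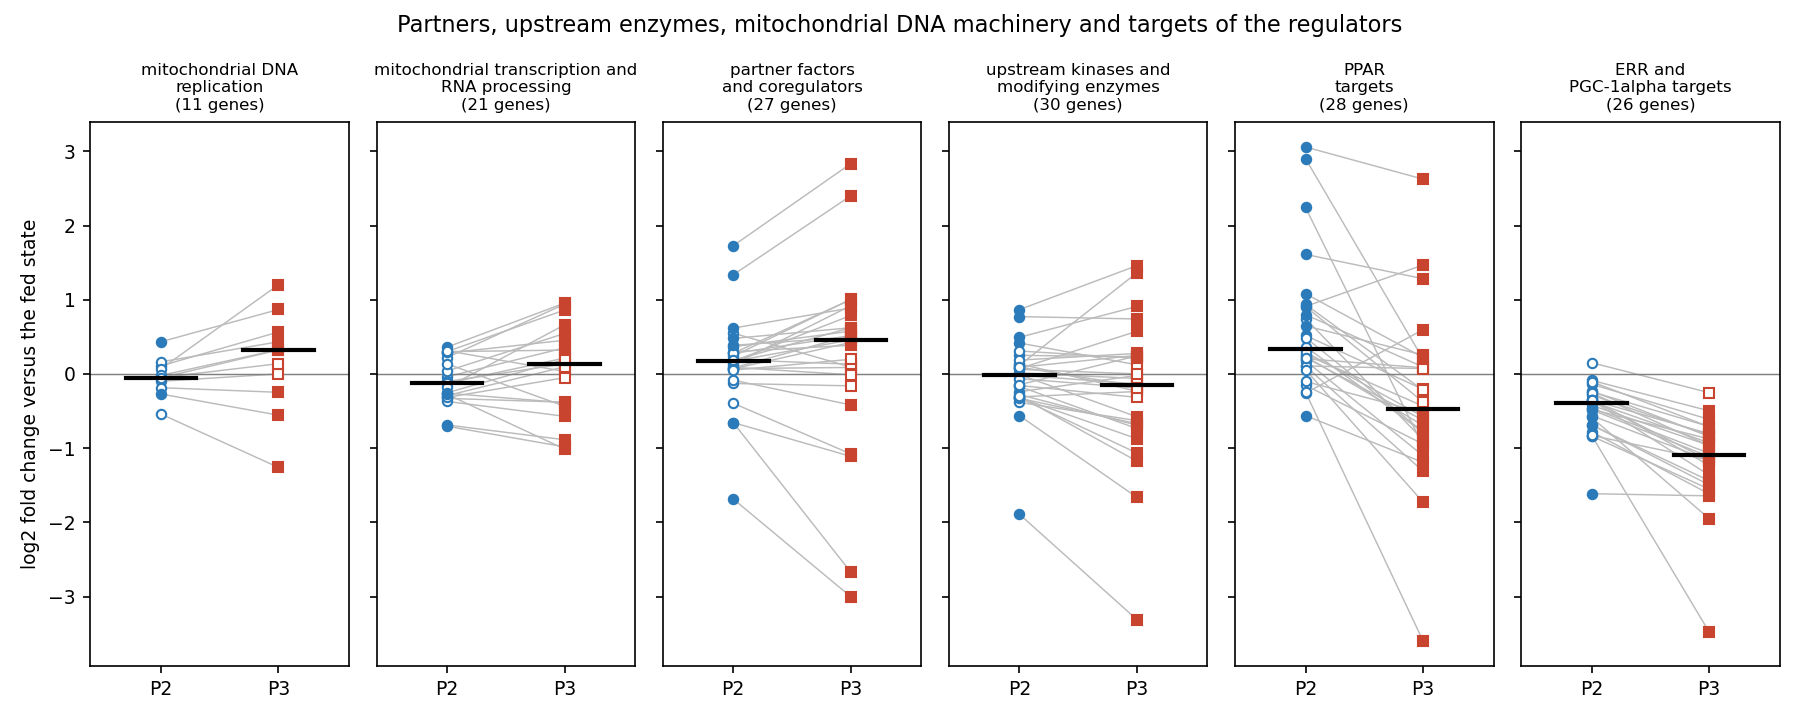
Log2 fold change versus the fed state (y axis) in P2 (circles) and P3 (squares) for the measured genes of 6 lists, with grey lines joining a gene and black bars for the list median. Filled symbols passed an adjusted p of 0.05. Of the ERR and PGC-1α targets 25 of 26 are lower in P3, and the PPAR targets have a list median of 0.33 in P2 and -0.48 in P3.

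The machinery that maintains mitochondrial DNA, in which Polg works, changed gene by gene. Of 16 genes 11 were measured. P3 rats had 6 higher and 3 lower than fed rats (Rrm2b, Dguok and Exog), with a median of 0.32, and 3 were higher without Fed 3. Lig3, the DNA ligase of mitochondria, measured 8.11, 8.05 and 8.10 in the fed rats, 7.93, 8.20 and 8.33 in P2 and 9.14, 9.47 and 9.24 in P3. It was higher by 1.20 ± 0.12 in P3 versus Fed (limma, adjusted p = 6.69e-05), and P2 overlapped with the fed rats. Polg2, the accessory subunit of the Polg enzyme, was higher by 0.57 ± 0.13 (adjusted p = 0.0116), where Polg itself was not called.

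Enzymes that supply nucleotides for this DNA moved in both directions in P3. Tk2, the mitochondrial thymidine kinase, was higher by 0.87 ± 0.09 (limma, adjusted p = 9.07e-05). Rrm2b, a subunit of ribonucleotide reductase, was lower (-1.26 ± 0.17, adjusted p = 0.000468), and so was Dguok, the deoxyguanosine kinase (-0.56 ± 0.07, adjusted p = 0.000361). In P2 versus Fed Tk2 (0.43 ± 0.09, adjusted p = 0.0182) and Dguok (-0.27 ± 0.07, adjusted p = 0.0497) were the only genes of the list that were called. The call of Tk2 was lost without Fed 2, P2 2 or P2 3 and that of Dguok without any 1 array. In P3 versus P2 Lig3, Rnaseh1, Atad3a and Tk2 were higher, 2 of them without P3 2. Rrm2b and Dguok were lower, of which 1 was left without P2 1 and none without P2 2, P2 3, P3 1 or P3 3.

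The genes that transcribe mitochondrial DNA and process its RNA, with Tfam and Tfb2m as starting factors, were similarly divided. Of 24 genes 21 were measured, and P3 rats had 8 of them higher and 7 lower than fed rats, with a median of 0.14. Elac2, which trims mitochondrial tRNAs, was higher by 0.95 ± 0.09 (limma, adjusted p = 6.76e-05), the transcription termination factor Mterf1 by 0.94 ± 0.18 (adjusted p = 0.00312) and the RNA-processing protein Ptcd1 by 0.86 ± 0.13 (adjusted p = 0.000983). Grsf1, a protein of mitochondrial RNA granules, was lower (-1.01 ± 0.06, adjusted p = 4.61e-06), as were Slirp, which stabilizes mitochondrial mRNAs (-0.98 ± 0.12, adjusted p = 0.000257), and the RNA helicase Supv3l1 (-0.89 ± 0.11, adjusted p = 0.000316). In P3 versus P2 9 were higher, 4 without P3 2, and Hsd17b10 and Grsf1 were lower.

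In P2 versus Fed 15 of these 21 genes were not called, and the median was -0.13. Tefm, Slirp, Supv3l1, Rexo2 and Grsf1 were lower and Elac2 was higher. Slirp (-0.70 ± 0.12, limma, adjusted p = 0.00786) and Supv3l1 (-0.69 ± 0.11, adjusted p = 0.00639) changed most. The lower count was 2 without Fed 1, Fed 2 or P2 3 and 3 without Fed 3 or P2 2. The call of Elac2 in P2 (0.36 ± 0.09, adjusted p = 0.0453) was lost when any array other than P2 2 or P3 1 was left out. The 13 mRNAs that mitochondrial DNA encodes matched no probe set by symbol and were not analysed here.

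Markers of slow fibres and of other cells changed in some sets and not in others. Of 8 markers of slow and oxidative fibres, 6 were lower in P3 versus Fed (Myh7, Tnni1, Tnnt1, Tnnc1, Myl2 and Myl3), with a median of -1.002, and 3 in P2 (Myh7, Myl2 and Myl3), with a median of -0.88. The P2 count was 1 without Fed 2, Fed 3, P2 1, P2 3 or P3 3 and 5 without P2 2. Summed linear intensities of the 8 markers were 18760 to 20223 in the fed rats, 9654 to 16403 in P2 and 8844 to 12524 in P3. Of 8 fibro-adipogenic markers 5 were lower in P3 (collagens, Lum and Cd34), and 2 in P2 (Col3a1 and Cd34). Pdgfra, Dcn and Ly6al were called in neither phase. Their P3 values versus Fed were -0.39 (limma, adjusted p = 0.377), 0.39 (0.0924) and 0.14 (0.51). Sums of the 8 markers were 14950 to 16794 in the fed rats, 6223 to 11843 in P2 and 4182 to 6569 in P3. Both fasted groups lay below the fed rats in these sums, to which the bright collagens Col1a1 and Col1a2 gave most in fed rats. The P2 count was 4 without P2 2 or P3 1 and 1 when any 1 of the other arrays was left out. Of 8 smooth muscle and pericyte markers 5 were lower in P3, 3 without Fed 1 or Fed 3. Their part in the decrease of the regulators was not tested.

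Of 7 measured adipocyte markers, Adipoq, Fabp4 and Cidec were higher in P2 versus Fed, 1 of them without Fed 2, and the summed intensity was 1055 to 1131 in the fed rats, 1761 to 1969 in P2 and 758 to 981 in P3. Fabp4 was lower in P3, a call lost without Fed 1 or Fed 3. Of 5 measured erythroid markers, Hbb, Hbb-b1 and Alas2 were lower in both phases. Of the macrophage (8 measured), endothelial (7), lymphocyte (7) and Schwann cell markers (6), Cd163 and Pecam1 were the only ones called versus the fed state, both higher in P3. Of 7 satellite cell markers Sdc4 was higher and Notch3 and Cdh15 were lower in P3, 1 of them without Fed 2 or P3 3. The part of these cells in the values of the regulators and their targets was not tested.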

How the data were processed

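Per the labels, TIB RNA of 9 rats (3 Fed, 3 P2, 3 P3, 1 array each) was hybridised to Affymetrix Rat Gene 1.0 ST arrays. The authors normalized (sketch quantile) and summarized (median polish, RMA) the probes in Affymetrix Expression Console 1.1, and the deposited values are log2 intensities. The table holds 29215 probe sets, which were used as deposited. Gene symbols come from the annotation of the platform, and a gene with several probe sets is represented by the brightest on average.

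Group means were fitted to all 9 arrays in R 4.3.3 with limma 3.58.1 (lmFit, eBayes), with Benjamini-Hochberg adjustment over 29215 probe sets and calls at an adjusted p under 0.05. The fit was tested on simulated data. Ratios within families were tested by an exact permutation test of the F statistic over 280 divisions of the arrays. Promoters are from RefSeq (GRCr8), and array coordinates were not used. Plots used matplotlib 3.10.9 in Python 3.11.15.

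The members and lists were chosen with earlier results of these data known. Genes named beside the 10 members are, per list, up to 3 genes per direction with the largest change among those called in P3 versus Fed and up to 2 in P2 versus Fed, with the higher group at a mean log2 intensity of 6 or more, and the 3 genes most like each member past the F test. The p-values of limma set differences between group means against the spread between rats within the 3 groups, moderated over all probe sets. Those of the permutation test rank the F statistic among the divisions of the arrays. The 3 arrays per group limit the precision. Alternatives were a repeated quantile normalization, subtraction of array medians, a filter at a mean of 5, only probe sets with 1 symbol, robust moderation with a trend, weights per array, a fit of only the groups compared, a block for the replicate number, calls at an adjusted p under 0.01, calls that also need a 1.5-fold change, the methods' ANOVA and Tukey test at a p under 0.001 or with adjustment, averaging a gene's probe sets, and leaving out each array. The counts of the lists under these settings were added after the data were seen. Other tissues and assays of the study are not analysed here.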

Additional observations from a re-analysis of the deposited data

How the results depend on the processing

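Of 660 log2 fold changes of members under alternatives, 594 kept direction and side of the threshold, 25 passed it in addition, 37 missed it and 4 changed sign. The sign changes concern values near 0 in P2 versus Fed: Ppard was 0.011 without Fed 2 and 0.026 without P2 3 (range with 1 array left out -0.051 to 0.026), and Polg was -0.031 after quantile normalization once more and -0.00024 without P2 3 (range -0.00024 to 0.096). The number of members called in P2 versus Fed was 5 with array weights, 5 after quantile normalization once more, 1 at an adjusted p under 0.01 and 1 by the methods' ANOVA and Tukey test at p under 0.001, and between 1 and 5 with 1 array left out. In P3 versus Fed it was 5 by the methods' ANOVA and Tukey test and between 7 and 10 with 1 array left out. In P3 versus P2 it was 8 with array weights, 3 with a change of at least 1.5-fold, 3 by the methods' ANOVA and Tukey test and between 5 and 8 with 1 array left out. The F test was passed by 6 to 9 members with 1 array left out. Log2 ratios in P3 versus Fed with 1 array left out ran from 0.451 to 0.823 for Ppargc1a minus Ppargc1b, from -1.232 to -0.964 for Ppara minus Ppard and from -0.155 to 0.183 for Esrra minus Esrrg, whose sign changed. The cause was not tested. The scalings shifted the median change of all probe sets by at most 0.0384. Single members shifted by up to 0.0943, in P3 versus Fed after quantile normalization once more. Arrays give no counts, and the number of rats limits what can be seen.

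Same-numbered arrays deviated together with r between -0.243 and 0.123, above 0.1 in 2 of 9 pairs. Arrays of different number reached 0.305. Deviations from a mean of 3 arrays are not independent, so these values cannot decide whether the numbers pair the rats. With the replicate block 2 members were called in P2 and 9 in P3 against the fed state, 5 between the phases, and 7 passed the F test. The call of Nrf1 in P2 versus Fed (adjusted p = 0.0606) and the F test of Tfb2m (adjusted p = 0.0501) were lost.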
